A study of Danio rerio with 9 samples.

Results

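Transcripts of splicing factors and nuclear RNA-binding proteins were followed in zebrafish gastrula embryos treated with pentachlorophenol. This chlorinated aromatic compound has served as a pesticide and wood preservative, and it uncouples oxidative phosphorylation in mitochondria. The members were chosen by name alone: every gene whose current or older symbol begins with snrp, sf3a, sf3b, srsf, sfrs, hnrnp, hnrp, lsm, prpf or u2af, and that at least 1 probe set of the array measures without naming another gene. This gave 86 genes of the 8793 genes named on the array, 77 by their current symbol and 9 by an older symbol only. They fall into 23 hnRNP proteins, 16 SR proteins, 13 LSm proteins, 12 Sm and snRNP proteins, 11 PRPF proteins, and 11 subunits of SF3A, SF3B and U2AF. These classes follow only the start of the matching symbol, current or older, so zfr is counted as hnRNP and sfswap and pnisr as SR. The signal of the brightest probe set of a gene, by mean over all arrays, stands for that gene.

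The embryos were whole wild-type animals of the Tuebingen line at the gastrula stage, about 8 h after fertilization, collected from eggs laid within 30 min and kept at 25 °C. The 3 groups received 20 µg/L pentachlorophenol, 50 µg/L pentachlorophenol or, in the controls, deionized water. There were 3 arrays per group that the labels call biological replicates, and for each array 8 µg of total RNA was labelled with biotin and hybridised to an Affymetrix zebrafish array. Staged embryos were selected by hand after exposure. How many embryos made a sample, and whether the clutches were separate, is not given in the labels. The p-values therefore cover only the spread between these arrays, which may be technical. No allele or transgene was involved.

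Splicing removes introns from nuclear pre-mRNA. Small nuclear RNAs bound by a ring of Sm proteins, or of LSm proteins for U6, form snRNPs that recognise the splice sites, and U2AF and the SF3A and SF3B complexes place the U2 snRNP at the branch point. PRPF proteins build and drive the U4/U6 and U5 part of the machine. SR proteins bind exonic enhancers and promote use of nearby splice sites, while hnRNP proteins coat nascent transcripts, often oppose inclusion of exons, and also act in export and stability. Before the zygotic genome is transcribed, a zebrafish embryo lives on RNA that the oocyte supplied, and transcripts of both origins are present in the gastrula.

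The label holds for most but not all of the genes the rule finds. The products of lsm1, lsm12a, lsm12b, lsm14aa, lsm14ab, lsm14b and edc3 (older symbol lsm16) are known to act in the cytoplasm, in decay or translational control of mRNA. The genes rbmx, tra2b, snrnp70, pnisr, sfswap, smx5, zfr and zgc:55733 also entered through an older symbol, and for zfr and zgc:55733 the older symbols hnrpa1 and hnrpc are those of other RNA-binding proteins. As a check of the tissue, 16 of 16 genes that mark the gastrula embryo were measured and none lay under the tag control level in all arrays of a group. That level, a bound on background, was set on each array at percentile 95 of the control probe sets that Affymetrix names Tag. Of 6 measured genes of later stages, 4 were too dim to test, and only the insulin gene ins lay under that bound in 9 of 9 arrays. The tested gene actc1b lay above it in all control arrays (255.3, 225.2 and 191.8) and all arrays at 20 µg/L. The tested gene elavl3 lay above it in all arrays at 20 µg/L. In whole embryos, fewer cells of a type and less RNA per cell cannot be told apart.

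Of the arrays, control replicate 3 stood apart. Its median Spearman correlation with the other arrays was 0.8475, and no other array had a higher tag control level (113.8). The correlation of 50 µg/L replicate 1 was 0.8782, and that of the other 7 arrays lay between 0.9064 and 0.9215. Median signals ranged from 97.9 to 151.9, with the 50 µg/L arrays at the upper end. Control replicate 3 held the highest value of all 9 arrays for 23 of the 86 genes and the lowest for 16, which is 26.7% and 18.6%, against 21.3% and 22.6% over all probe sets tested.

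Nearly all members were measured above the bound on background. The values of 85 genes lay above the tag control level in all 9 arrays, and these 85 genes had a tested probe set. Some single values lay close to it, also in genes called below. In control replicate 3, with a level of 113.8, lsm14b was at 116.1 and lsm11 at 122.7. In 50 µg/L replicate 1, with a level of 78.6, hnrnpua was at 93.7. The 1 gene not tested was snrpd2, a subunit of the Sm ring, whose signals ran from 11.2 to 92.2. The probe sets of snrpf, hnrnpdl and hnrnpa0l are of a design kind whose probes can match several transcripts. The map of signals by array shows each gene relative to its own control mean.

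**Figure D1:**
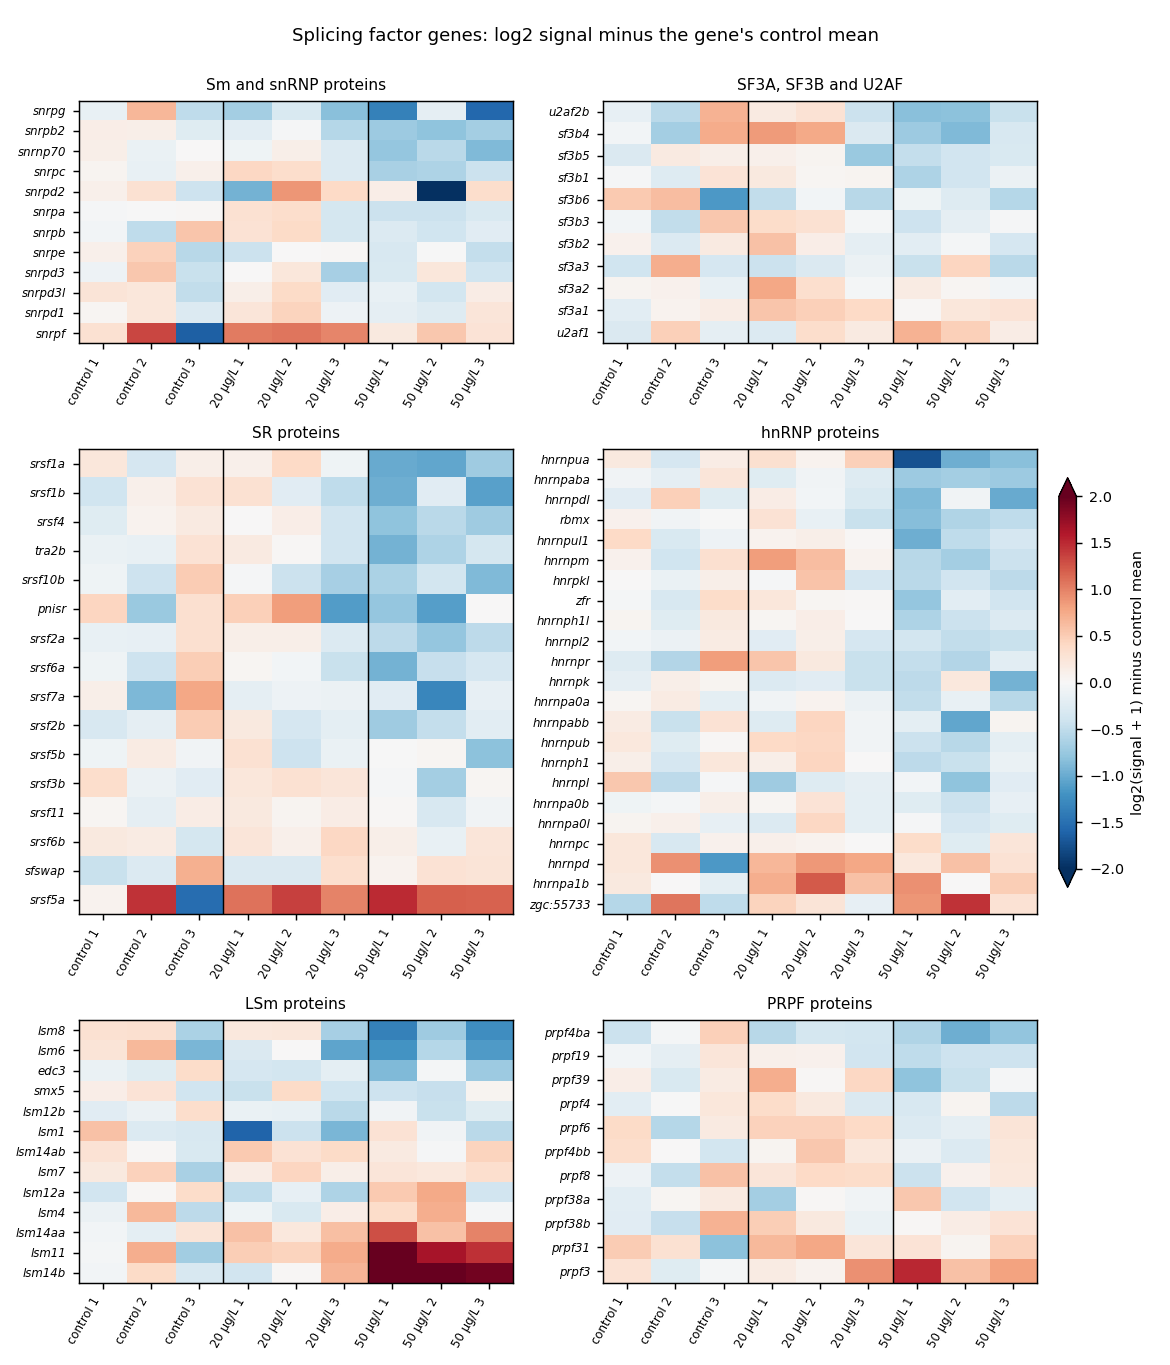
Each row is a gene, each column 1 of the 9 arrays, and colour gives log2(signal + 1) minus the mean of the gene's 3 control arrays, in 6 role classes sorted by the change at 50 µg/L. Blue dominates the 50 µg/L columns of the Sm and snRNP, SR and hnRNP classes, where 11 of 12, 13 of 16 and 19 of 23 genes had a negative change, while lsm14b and lsm11 stand out in red.

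At 50 µg/L, 2 of the 85 genes tested rose against control and none fell. The 2 that rose were lsm14b, which encodes a cytoplasmic translational regulator of the LSm14 family, and lsm11, which encodes a subunit of the U7 snRNP that trims histone pre-mRNAs. Most of the other genes had smaller values in the opposite direction: 65 of 86 had a negative log2 change, and the median over the 86 genes was -0.33, a fold of 0.794. Over all 9301 probe sets tested the median was 0.10, and 43.9% were negative. The 83 genes that did not pass include every tested SR, hnRNP, PRPF, Sm and SF3 member.

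The background of this comparison was 4.48% of probe sets called by limma at an adjusted p under 0.05, of which 3.45% were higher and 1.03% lower. The members' counts of 2 higher and 0 lower of 85 are to be read against those shares. At an unadjusted p under 0.05, 5 genes (5.88%) were higher and 20 (23.5%) lower, beside 15.9% and 8.65% of all probe sets tested. The 3 exposed and 3 control arrays did not overlap for 4 genes (4.71%) on the higher side and 21 (24.7%) on the lower side, beside 17.8% and 10.4% of all probe sets. Such genes are listed by class below, and the class counts are to be read against the same shares of all probe sets.

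The size of the shift depended on the scaling of the arrays, and its sign did not under the 3 scalings compared. The median over the members was -0.33 with the signals as deposited, -0.20 after quantile normalization and -0.62 with each array centred on its median. The median of all probe sets tested moved as well, from 0.10 to -0.04 and -0.18. The members' median thus lay below that of all probe sets by 0.44, 0.17 and 0.44 in the 3 scalings (members minus all: -0.44, -0.17 and -0.44). The number of members with a negative change was 65, 58 and 74.

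Per array, the members' median relative to the control mean was 0.02, -0.09 and 0.10 in the control arrays, 0.13, 0.13 and -0.13 at 20 µg/L, and -0.34, -0.35 and -0.24 at 50 µg/L. The 3 arrays at 50 µg/L lay below all 6 others under each of the 3 scalings. All arrays with replicate number 3 were deposited with more decimals than the rest, which marks a possible difference in processing. Among the 6 arrays with fewer decimals the median change at 50 µg/L was -0.35, and between the single arrays with more decimals it was -0.37. Leaving out any 1 of the 9 arrays kept the median between -0.36 and -0.31.

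**Figure D2:**
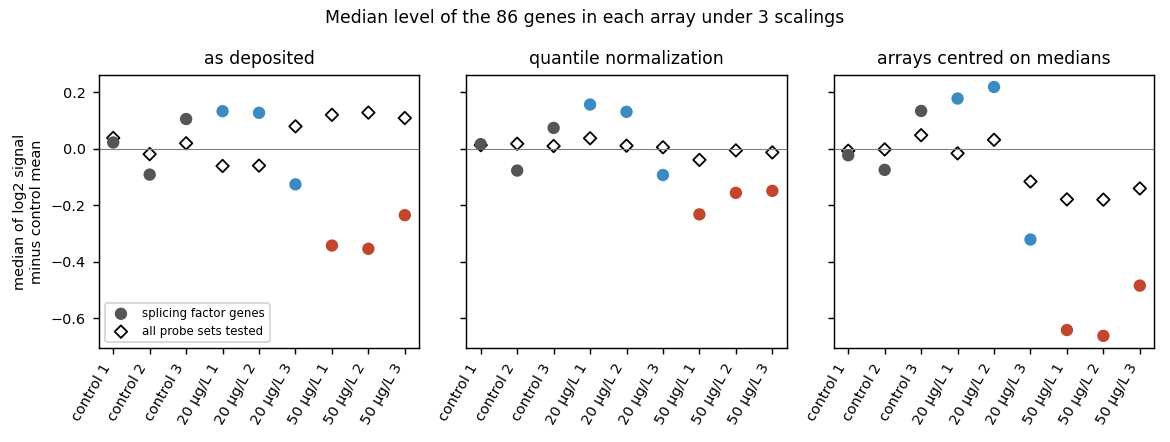
Filled points are the median over the 86 genes of log2(signal + 1) minus the control mean in each array, open diamonds the same over all probe sets tested, in 3 panels for the signals as deposited, quantile normalized, and centred on array medians. With the signals as deposited the 50 µg/L points lie at -0.34, -0.35 and -0.24 while their diamonds lie above 0.1, and the gap between point and diamond is narrowest after quantile normalization.

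Signal level moved with this result. Of the 86 genes, 64 had a mean log2 signal of at least 10.06, the members' lower quartile, and their median change was -0.38. The other 1687 named genes at or above that level had a median of -0.16 and 62.6% of them were negative, beside 82.8% of the 64 members. The part of signal level in the members' shift was not tested.

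Among the Sm and snRNP proteins, 0 of 11 tested genes passed, 11 of 12 had a negative change, the dim snrpd2 included, and the class median was -0.34, with a fold of 0.788. The arrays did not overlap for 4 of them, all lower at 50 µg/L: snrnp70, snrpc and snrpa, which encode the 3 U1 proteins that help to recognise the 5′ splice site, and snrpb2, which encodes a U2 protein that binds the U2 RNA. The signal of snrnp70 was 7804, 6527 and 7227 in the control arrays, 6759, 7740 and 5919 at 20 µg/L, and 4207, 4944 and 3888 at 50 µg/L. All 3 arrays at 50 µg/L lay below the 6 others. Its log2 change was -0.73 (SE 0.21) and did not pass (limma adjusted p = 0.062).

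For snrpb2 the control arrays gave 5959, 5919 and 4619, the 20 µg/L arrays 4704, 5351 and 3679, and the 50 µg/L arrays 3295, 3134 and 3392. Again the exposed arrays at the higher dose were the 3 lowest of the 9, and the log2 change was -0.74 (SE 0.22) at limma adjusted p = 0.073. With each array centred on its median both snrnp70 and snrpb2 passed (adjusted p = 0.0354 and 0.0425), as they did with array weights (0.00748 and 0.00745). Each of the 2 genes passed only in these 2 of 13 other settings, and in 0 of 9 fits that left out an array. The values of snrpc (-0.57) and snrpa (-0.39) had adjusted p = 0.139 and 0.309. Among genes of the Sm ring, the changes of snrpb, snrpd1, snrpd3, snrpd3l and snrpe lay between -0.30 and -0.06, and all but that of snrpb turned positive after quantile normalization. That of snrpg was -1.04 (adjusted p = 0.125), with control signals of 2937, 5189 and 2298 and exposed signals of 1281, 2890 and 1096, which overlap. The signal of snrpf, the 1 member of the class with a positive change (0.34), ran from 1098 in control replicate 3 to 8613 in control replicate 2, and its change turned negative without control replicate 3.

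In the SF3A, SF3B and U2AF class 0 of 11 genes passed, 8 had a negative change and the median was -0.20. The 1 gene whose arrays did not overlap was sf3b5, which encodes a small subunit of SF3B. Its signals were 3694, 5137 and 4886 in the control arrays, 4855, 4712 and 2714 at 20 µg/L, and 3266, 3468 and 3648 at 50 µg/L. The gap between the highest exposed array and the lowest control array was small, and the log2 change of -0.39 did not pass (limma adjusted p = 0.38). The lowest value of sf3b5 was that of 20 µg/L replicate 3. The change was -0.70 for u2af2b, whose product binds the polypyrimidine tract, and -0.64 for sf3b4, and for both genes control replicate 3 was the highest control array (9088 and 8257). Without that array the changes were -0.35 for u2af2b and -0.27 for sf3b4. The core branch-point subunit sf3b1 had -0.37 (adjusted p = 0.323, and a positive value with its probe sets averaged), and u2af1, whose product contacts the AG at the intron end, had 0.44 (adjusted p = 0.384).

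Of the 16 SR proteins none passed, 13 had a negative change, and the class median of -0.57 (a fold of 0.674) was the lowest of the 6 classes with the signals as deposited. It was -0.38 after quantile normalization and -0.86 with arrays centred. The gene closest to the threshold was srsf1a, which encodes one of the copies of the classical splicing enhancer protein SRSF1. Its signal was 4791, 3244 and 4468 in control embryos, 4428, 5396 and 3865 at 20 µg/L, and 2050, 2009 and 2513 at 50 µg/L. The 3 exposed arrays at 50 µg/L lay below all others, with a mean of 2191 ± 280 (SD, n = 3) against 4168 ± 816 in the controls. The log2 change was -0.92 (SE 0.24, limma adjusted p = 0.0502), and it passed in 6 of 13 other settings and 2 of 9 fits that left out an array.

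Non-overlapping arrays, all lower, were also found for srsf4, tra2b and srsf2a. The control signals of srsf4 were 6441, 8012 and 8709, and those at 50 µg/L were 4407, 5275 and 4667, while 20 µg/L gave 7663, 8444 and 5851. Its log2 change was -0.68 (limma adjusted p = 0.0849), and it passed with arrays centred on their medians (adjusted p = 0.049). That was the 1 of 13 other settings in which srsf4 passed, and it did in 0 of 9 fits that left out an array. The enhancer-binding gene tra2b had -0.64 and srsf2a, whose product helps assembly of the early spliceosome, had -0.61 (adjusted p = 0.161 and 0.108). The widest scatter of the class was in srsf5a, whose control signals were 3239, 8378 and 1075. The exposed signals were 8654, 7034 and 7008, so control replicate 2 lay within their range. Its change of 1.29 did not pass (adjusted p = 0.158), and without control replicate 2 it did (adjusted p = 0.014). Without control replicate 3, the lowest array, the change of srsf5a was 0.53.

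The hnRNP class, with 23 genes, had 0 called, 19 negative changes and a median of -0.42. For 9 of its genes (39.1%, beside 10.4% of all probe sets tested) the control and 50 µg/L arrays did not overlap, all lower: hnrnpua, hnrnpaba, rbmx, hnrnpul1, hnrnpm, hnrpkl, hnrnph1l, hnrnpl2 and hnrnpa0b. The largest change was in hnrnpua, a copy of the gene for the nuclear scaffold protein hnRNP U. Its signal was 361.7, 251.1 and 349.4 in control arrays, 393.6, 333.2 and 440.4 at 20 µg/L, and 93.7, 159.9 and 177.5 at 50 µg/L. All 3 arrays of the higher dose lay below the 6 others, with a mean of 143.7 ± 44.2 (SD, n = 3) against 320.7 ± 60.6. The log2 change of -1.19 (SE 0.32) did not pass (limma adjusted p = 0.0538), though it did in 8 of 13 other settings. Of 9 fits that left out an array it passed in 1, the one lacking control replicate 2 (adjusted p = 0.0379). Without 50 µg/L replicate 1 the adjusted p was 0.222.

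The signal of hnrnpaba, whose product binds nascent and cytoplasmic mRNA, was 10950, 10140 and 13510 in control arrays, 9685, 10850 and 9591 at 20 µg/L, and 6887, 7129 and 6947 at 50 µg/L. The exposed arrays at the higher dose were tightly grouped below the rest. The change of -0.71 (SE 0.19, limma adjusted p = 0.0531) passed in 5 of 13 other settings and 1 of 9 fits that left out an array. The other 7 genes without overlap had changes from -0.65 for rbmx, which encodes hnRNP G, to -0.28 for hnrnpa0b, and of these 7 hnrnpa0b is the 1 that turned positive with quantile normalization or with the mean of its probe sets. Members above control were zgc:55733 (0.87), hnrnpa1b (0.47), hnrnpd (0.36) and hnrnpc (0.13, negative with arrays centred), none of them called. Without control replicate 3 the value of hnrnpd turned negative, as it did with its probe sets averaged and among the arrays with fewer decimals. The second probe set of hnrnpd gave -0.91.

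Of the 11 PRPF genes none passed, 8 had a negative change and the median was -0.05. The arrays did not overlap for prpf3, on the higher side, and for prpf4ba and prpf19, on the lower side. The U4/U6 snRNP gene prpf3 gave signals of 501, 349.5 and 398.6 in control arrays, 462.1, 430.6 and 780.8 at 20 µg/L, and 1173, 620.3 and 716.8 at 50 µg/L. Its lowest exposed array was above the highest control array and below 20 µg/L replicate 3. The change was 0.97 (SE 0.33, limma adjusted p = 0.0978), and the gene's second probe set gave -0.10.

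The gene prpf4ba, a copy of the gene for a kinase that phosphorylates splicing factors, had 852, 1125 and 1596 in control arrays, 783.2, 900.8 and 897.8 at 20 µg/L, and 758.8, 585.8 and 664.3 at 50 µg/L. Its highest value was in control replicate 3. The change of prpf4ba was -0.79 (limma adjusted p = 0.106, and 0.0481 with arrays centred). It passed in that 1 of 13 other settings and in 0 of 9 fits that left out an array. That of prpf19, which encodes a ubiquitin ligase of the catalytic spliceosome, was -0.45 (adjusted p = 0.199), and that of prpf8, the core protein of the U5 snRNP, was -0.05 (adjusted p = 0.932, and positive after quantile normalization).

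The LSm class held the 2 genes that rose. Its median was 0.20, and it was -0.09 with each array centred on its median, so the sign of the class median depended on the scaling. The signal of lsm14b was 140.8, 190 and 116.1 in control arrays, 112.1, 149.1 and 234.4 at 20 µg/L, and 1265, 739.8 and 556.9 at 50 µg/L. The 3 arrays at 50 µg/L lay above all 6 others, and the 2 other groups overlapped. The mean was 853.8 ± 367 (SD, n = 3) against 149 ± 37.6, with a log2 change of 2.46 (SE 0.38) and limma adjusted p = 0.0084. It was the 1 member called by the F test over both doses (adjusted p = 0.0123), a test that called 1.76% of all probe sets. Leaving out 50 µg/L replicate 1, whose signal was the highest, took the call away (adjusted p = 0.0717), and it held without control replicate 3 (0.0136).

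The signal of lsm11 was 194.3, 331.3 and 122.7 in control arrays, 281.4, 271.6 and 333.7 at 20 µg/L, and 874.7, 628.9 and 550.8 at 50 µg/L. The exposed arrays at 50 µg/L were above all others. The mean was 684.8 ± 169 (SD, n = 3) against 216.1 ± 106, with a log2 change of 1.75 (SE 0.36) and limma adjusted p = 0.0228. This call did not survive the removal of 50 µg/L replicate 1 (adjusted p = 0.141), 50 µg/L replicate 2 (0.0649) or control replicate 1 (0.0574), nor a fit of only the 2 groups compared (0.0531), and it held without control replicate 3 (0.0336). A second probe set of lsm11 had 1.09 and did not pass (adjusted p = 0.161).

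Many transcripts known to be supplied by the oocyte were higher in the same arrays. Of 15 measured genes of an oocyte list, 13 were tested, 8 rose at 50 µg/L and none fell, with a list median of 2.11. The list was set with earlier results of these data known, so these counts describe it and are not a test. Over all probe sets tested 3.45% were called higher and 1.03% lower. The gene dazl went the other way (-0.75, limma adjusted p = 0.242), with all its arrays at 50 µg/L below the controls. The summed signal of the 15 genes lay between 4243 and 6899 in the control arrays, 4516 and 6662 at 20 µg/L, and 16570 and 31770 at 50 µg/L. In control embryos, 2 of the 15 were under the tag control level in all 3 arrays, and none was at 50 µg/L. In mouse, the LSM14B protein is known for a role in oocytes. The part of this list in the result for lsm14b and lsm11 was not tested.

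Some markers of the embryo and the yolk syncytial layer also differed at 50 µg/L. The counts called in these lists stand beside 3.45% of all probe sets tested called higher and 1.03% lower. Of the 16 gastrula genes, 3 rose (gsc by 1.51, vent by 2.37 and mixl1 by 2.63 on the log2 scale) and otx2b fell (-1.77), with a list median of 0.59. The summed signal of that list was 42470 to 48410 in control arrays, 46970 to 57430 at 20 µg/L and 64500 to 78470 at 50 µg/L, so the higher dose lay above both other groups. In the yolk syncytial layer list 1 of 4 tested genes rose (hnf4a, by 1.62), while the list median was -0.25. The changes of slc26a1, mxtx2, apoba and the untested apoa4b.1 were -0.49, -0.25, -0.0024 and -1.68. For slc26a1 all arrays at 50 µg/L lay below the controls. The sums of this list were 1318 to 2068, 1414 to 2703 and 2566 to 3329. For the enveloping layer 0 of 5 genes were called, and the sums overlapped (83290 to 105500, 80940 to 101400 and 81890 to 94720). Of the 2 tested genes of later stages 1 fell (actc1b), and the sums of that list were 412.9 to 534.3, 317.5 to 407.7 and 289.8 to 320.8. The part of these markers in the members' values was not tested.

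Further LSm genes had large changes that did not pass. The P-body gene lsm14aa had 488, 438.8 and 601.8 in control arrays, 757, 581.8 and 768.9 at 20 µg/L, and 1232, 762.6 and 1001 at 50 µg/L, with no overlap between control and 50 µg/L. Its change of 0.95 (SE 0.27) had limma adjusted p = 0.0637, and its other probe sets gave 0.70 and -0.31. Opposite in direction was lsm8, which completes the ring on U6 RNA, with 2897, 2914 and 1507 in control arrays and 911.3, 1419 and 985.6 at 50 µg/L. The change of lsm8 was -1.11 (SE 0.34, adjusted p = 0.0777), with adjusted p = 0.0387 when the export format was a block. Another ring gene, lsm6, had -0.96 (adjusted p = 0.159). Without control replicate 3 both passed, lsm8 with -1.42 and lsm6 with -1.42 (adjusted p = 0.0307 and 0.0336), as they did among the arrays with fewer decimals (0.0214 and 0.0259), and lsm8 also with arrays centred (0.0466). In all, lsm8 passed in 4 and lsm6 in 2 of 13 other settings, and each in 1 of 9 fits that left out an array. The 6 genes lsm1, lsm12a, lsm12b, lsm14aa, lsm14ab and lsm14b had a median of 0.25, and the other 7 LSm genes a median of -0.28. The 7 include the cytoplasmic edc3 (-0.54), so these medians do not set cytoplasmic against nuclear genes. The rest of the 7 had changes of both signs, from -1.11 for lsm8 to 1.75 for lsm11. The difference between these medians was not tested.

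**Figure D3:**
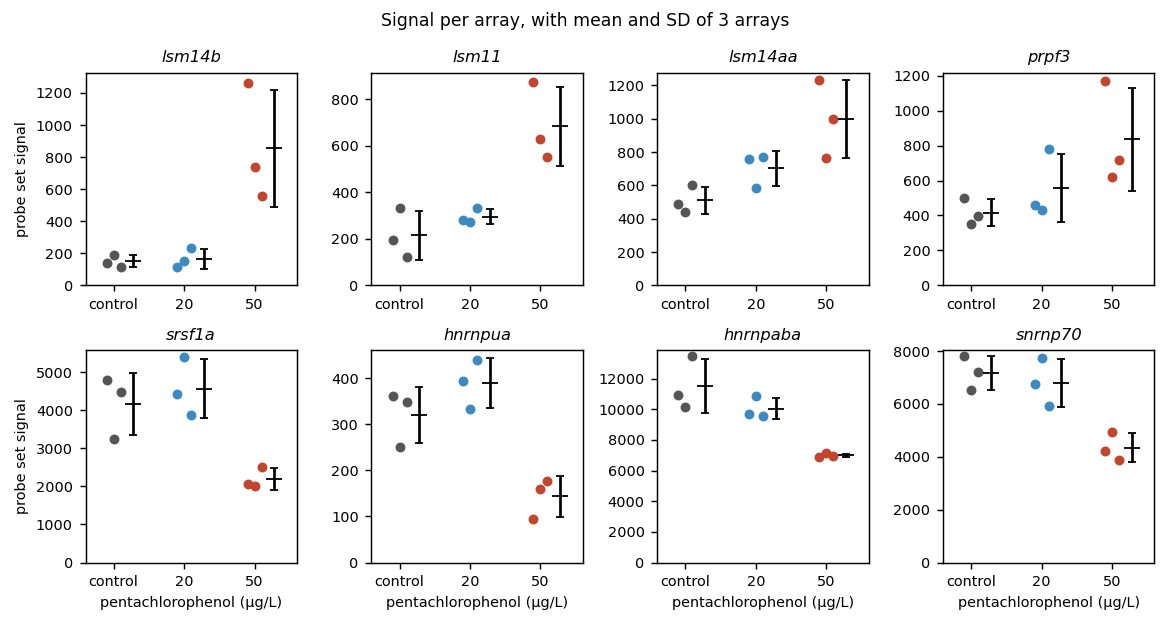
Probe set signal on a linear axis from 0 in each array (points) with the mean and SD of 3 arrays (bars), by dose of pentachlorophenol in µg/L, for 8 genes. In the upper row the 50 µg/L arrays of lsm14b, lsm11, lsm14aa and prpf3 lie above all control arrays, and in the lower row those of srsf1a, hnrnpua, hnrnpaba and snrnp70 lie below them, while only lsm14b and lsm11 passed the test against control.

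At 20 µg/L, 0 of 85 genes passed against control in either direction, and the background of called probe sets was 0.0%. At an unadjusted p under 0.05, 3 members were higher and 1 lower (3.53% and 1.18%, beside 4.29% and 3.57% of all probe sets). The lowest adjusted p among the members was 0.61. Of the 86 genes, 49 had a positive change and 37 a negative one, with a median of 0.07 beside -0.04 for all probe sets. The sign of that median turned without 20 µg/L replicate 2 (-0.01). Among the 6 arrays with fewer decimals it was 0.17 and between the 2 single arrays with more decimals -0.22.

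Arrays of the lower dose and control did not overlap for 6 genes, 4 higher (4.71%) and 2 lower (2.35%), beside 5.71% and 6.96% of all probe sets. The higher ones were hnrnpa1b, sf3a1, prpf6 and lsm14ab. Signals of hnrnpa1b, a copy of the gene for hnRNP A1, were 11690, 10280 and 8918 in control arrays and 16860, 23830 and 15440 at 20 µg/L. The lower ones were lsm1, whose product belongs to the cytoplasmic decay ring, and hnrnpk. Values of lsm1 were 286.8, 156.3 and 152.5 in control arrays and 62.2, 140.2 and 100.3 at 20 µg/L, close to the tag control level of 56.92 in replicate 1. By class the medians at this dose lay between -0.09 for the LSm and 0.27 for the PRPF genes.

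**Figure D4:**
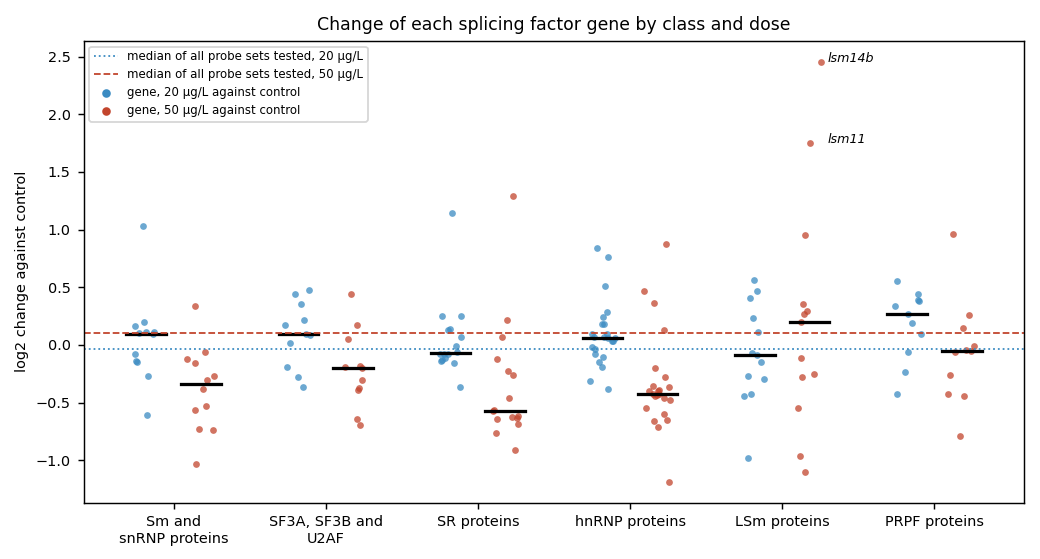
Each point is the log2 change of a gene against control, blue for 20 µg/L and red for 50 µg/L, by role class, with black bars for class medians and lines for the medians of all probe sets tested. At 50 µg/L the medians are -0.34, -0.20, -0.57, -0.42, 0.20 and -0.05 from left to right with the signals as deposited, and that of the LSm class turns to -0.09 with arrays centred on their medians.

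Between the doses, 1 of 85 genes rose and 1 fell from 20 to 50 µg/L. The gene that rose was lsm14b, with a log2 difference of 2.34 (SE 0.38, limma adjusted p = 0.0182), and the gene that fell was hnrnpua, with -1.47 (SE 0.32, adjusted p = 0.0421). The signals of both are given above, and in each case the groups did not overlap. Over all probe sets 1.39% were called, 1.35% higher and 0.0323% lower. This comparison shares its 50 µg/L arrays with that against control, so they are not independent of each other.

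At an unadjusted p under 0.05, 3 members were higher and 18 (21.2%) lower, beside 13.3% and 5.13% of all probe sets tested. Groups did not overlap for 2 members on the higher side and 32 (37.6%) on the lower side, beside 18.2% and 9.75%. Of the 86 genes 68 were lower at the higher dose, and the median was -0.37 beside 0.11 for all probe sets. It was -0.24 after quantile normalization and -0.63 with arrays centred, with -0.05 and -0.15 for all probe sets. Among the 6 arrays with fewer decimals the median was -0.51, and between the single arrays with more decimals it was -0.11. Of the 64 members with a mean log2 signal of at least 10.06, 89.1% were lower, with a median of -0.39. The other 1687 named genes at or above that level had a median of -0.20, and 68.0% of them were lower. The part of signal level in this difference was not tested.

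By class, all 12 Sm and snRNP genes were lower at 50 than at 20 µg/L (median -0.45). They include the dim, untested snrpd2, at -0.03 with values raised to the tag control level, and snrpd3, at -0.014. Also lower were 20 of 23 hnRNP genes (-0.50), 14 of 16 SR genes (-0.43), 9 of 11 PRPF genes (-0.36) and 8 of 11 genes of the SF3 and U2AF class (-0.31). These 5 medians stayed negative under quantile normalization and centring, while that of the LSm class was 0.03 and turned to -0.23 with arrays centred. The members closest to the threshold without passing were srsf1a (-1.05, adjusted p = 0.0519) and hnrnpm (-1.06, adjusted p = 0.0688), whose product regulates alternative exons. The signals of hnrnpm were 9119, 7816 and 5380 at 20 µg/L and 3494, 3198 and 3806 at 50 µg/L. Its control signals of 5437, 3869 and 6356 lay above the 50 µg/L arrays and overlapped those of 20 µg/L.

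The call of lsm14b between the doses held in 5 of 9 fits that left out an array and was lost without 20 µg/L replicate 1 or 2 or 50 µg/L replicate 1 or 2 (adjusted p = 0.121, 0.11, 0.143 and 0.0803). That of hnrnpua held in 3 of 9, without control replicate 2 or 3 or 50 µg/L replicate 3, and had adjusted p up to 0.253 without 50 µg/L replicate 1. The fall of hnrnpua was also lost without the filter on dim probe sets (0.0672) and in a fit blocked on replicate number (0.0663). More members were called with array weights, namely 3 higher and 23 lower between the doses and 6 higher and 11 lower at 50 µg/L against control. The 11 were snrnp70, snrpb2, snrpc, snrpg, srsf1a, hnrnpua, hnrnpaba, hnrnpul1, rbmx, lsm6 and lsm8. With arrays centred on their medians 8 members were lower against control, and without control replicate 2 the counts were 4 higher and 3 lower. The shares of all probe sets called in these fits are not given here, so the counts have no background beside them. With arrays centred, 4.71% of members lay without overlap above control and 48.2% below it, beside 9.31% and 21.1% of all probe sets tested.

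Zebrafish keep a pair of copies of many of these genes. By the rule that symbols differ only in a last a or b, 12 pairs were found, of which snrpa with snrpb and prpf38a with prpf38b are not copies of one gene but distinct proteins. Both were kept in the adjustment and are not described. In 7 of the 12 pairs both genes had a negative change at 50 µg/L. Probes of different genes differ in brightness, so the ratio within a pair was compared between arrays and its level was not read.

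For hnrnpua and hnrnpub the log2 ratio was -4.28, -4.36 and -4.15 in control arrays, -4.35, -4.60 and -3.71 at 20 µg/L, and -5.58, -4.69 and -4.90 at 50 µg/L. It was lower in all 3 arrays of the higher dose than in the controls, by -0.79 on average, and was the 1 ratio of 12 without overlap. The change of hnrnpub was -0.39 against -1.19 for its partner. With 3 arrays against 3 an exact two-sided permutation test cannot give a p below 0.1, which it gave here (0.6 after Benjamini-Hochberg adjustment over 12 pairs).

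The other ratios overlapped between control and 50 µg/L. The SR pairs srsf1a with srsf1b (-0.92 and -0.76) and srsf2a with srsf2b (-0.61 and -0.46) had changes of similar size, with differences of -0.15 in both pairs, which the spread between arrays does not separate from 0. The hnRNP pairs hnrnpaba with hnrnpabb (-0.71 and -0.40) and hnrnpa0a with hnrnpa0b (-0.40 and -0.28) were both lower too. The change of hnrnpa0b turned positive after quantile normalization and with its probe sets averaged. Opposite signs were seen for srsf5a with srsf5b (1.29 and -0.26), srsf6a with srsf6b (-0.58 and 0.07, the latter negative with arrays centred) and lsm12a with lsm12b (0.30 and -0.25). The change of lsm12b turned positive (0.50) with its probe sets averaged, and its second probe set gave 1.24. For prpf4ba with prpf4bb the values were -0.79 and -0.05, and for lsm14aa with lsm14ab 0.95 and 0.20, the latter negative with arrays centred. None of these differences could be called, since with 3 arrays against 3 the exact permutation test cannot give a p below 0.1.

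**Figure D5:**
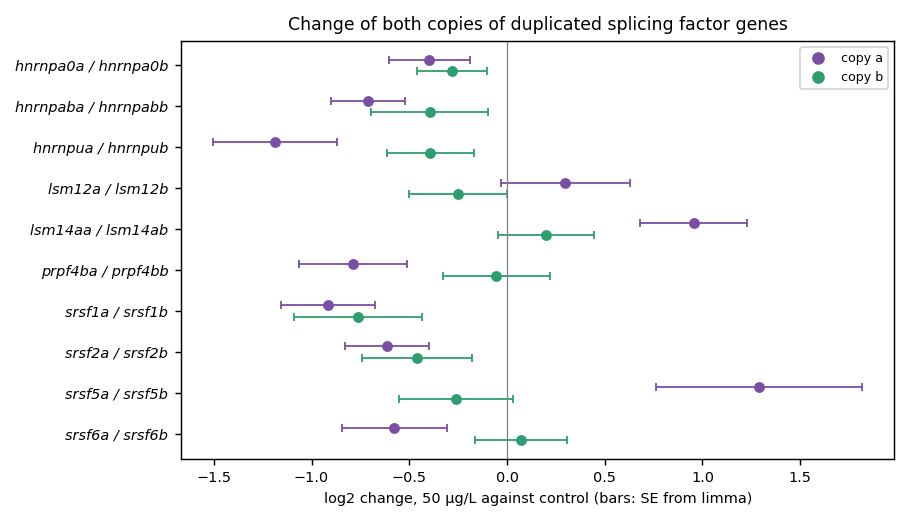
Log2 change at 50 µg/L against control of both copies of 10 duplicated genes, purple for the copy ending in a and green for the copy ending in b, with bars of 1 SE from limma. The copies of hnrnpu are the pair whose ratio did not overlap between groups (-1.19 and -0.39). The SE bars of lsm14a, prpf4b, srsf5 and srsf6 copies are also apart, while their ratios overlapped between the groups.

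Other probe sets of the members tell how far 1 probe set speaks for its gene. There were 26 of them, of which 22 were bright enough to test, for 16 genes. At 50 µg/L, 12 of the 22 had the sign of the gene's standing probe set and 10 the opposite sign, and 0 were called. The opposite ones include second probe sets of sf3b1 (0.65 against -0.37), u2af2b (0.62 against -0.70), prpf8 (1.36 against -0.05) and lsm12b (1.24 against -0.25). For hnrnpua, hnrnpaba, srsf1a and lsm14b there is no second probe set. With the average of a gene's probe sets in place of the brightest, the members' median was -0.27 at 50 µg/L and 3 genes fell, namely hnrnpaba, hnrnpua and srsf1a.

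Genes of the splicing pathway outside the symbol rule were taken from a list of 183, of which 137 were on the array and 129 were tested. At 50 µg/L 1 rose, none fell and 128 did not pass, while 3.45% of all probe sets tested were called higher and 1.03% lower. Of the 137, 77 were negative, beside 43.9% of all probe sets tested, and the median was -0.10. The gene that rose was ddx17, which encodes an RNA helicase that acts in splicing and transcription. Its signal was 382.1, 203.3 and 234 in control arrays, 453, 385 and 759.6 at 20 µg/L, and 1015, 446.4 and 1262 at 50 µg/L. The 3 arrays at 50 µg/L lay above the controls, and the log2 change of 1.66 (SE 0.42) passed at limma adjusted p = 0.0451. The call held in 2 of 9 fits that left out an array, the one lacking replicate 3 of 20 µg/L and the one lacking replicate 2 of 50 µg/L, with adjusted p up to 0.189 in the others. It held in 7 of 13 other settings, with adjusted p up to 0.103 where it was lost. Quantile normalization (0.0675) and arrays centred on their medians (0.0577) were among those that lost it. The signals of ddx17 at 50 µg/L overlapped those at 20 µg/L.

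Within that list the medians at 50 µg/L were -0.22 for 43 other splicing regulators, -0.19 for 19 genes of the A complex and 17S U2, -0.05 for 24 genes of the exon junction and export, 0.07 for 21 of the catalytic step, 0.13 for 12 of snRNP assembly and 0.27 for 18 of U5, U4/U6 and the B complex. At 20 µg/L the median over the 137 was 0.11, with 0 called. Between the doses it was -0.18, with 94 of 137 lower, and 0 were called by limma. Over all probe sets tested the median between the doses was 0.11, and 41.7% were lower. For the 1687 named genes other than members with a mean log2 signal of at least 10.06 these values were -0.20 and 68.0%. The 137 genes were not chosen by signal level, and its part in their values was not tested. At an unadjusted p under 0.05, 4 of 129 were higher and 7 lower, beside 13.3% and 5.13% of all probe sets tested. The arrays of the 2 doses did not overlap for 9 of the 129 tested genes on the higher side and 28 on the lower side. The shares over all probe sets tested were 18.2% and 9.75%. At 50 µg/L against control, 13 of the 129 were higher and 15 lower without overlap, beside 17.8% and 10.4%. At an unadjusted p under 0.05 by limma, 10 were higher and 12 lower in that comparison, beside 15.9% and 8.65%.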

How the data were processed

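The deposited intensity values are on a linear scale, with 1 value for each probe set in each array. They were made by the authors with GCOS and MAS5, per the submitters' processing notes (no version is given in the sources used here). MAS5 is the Affymetrix method that summarises the probe pairs of a probe set into 1 signal. The authors had scaled all arrays alike, since a mean trimmed by 2% at both ends came to 500.1 or 500.2 in each. Every column was a sample of the series. Of 15617 probe sets, 10802 had 1 gene in the platform annotation, 135 had several and 4680 had none. Symbols were updated through the reference tables, and probe sets with several genes named none.

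Values were taken as log2(value + 1), and fold changes are on that scale. The 115 control probe sets and the lowest 40% of the rest by mean were left out, leaving 9301. One model over all 9 arrays was fitted with limma 3.58.1 in R 4.3.3 (lmFit, group contrasts, eBayes with trend), two-sided, with Benjamini-Hochberg adjustment over all probe sets kept and a threshold of 0.05. The script was tested on simulated data. Array number limits the precision, and detection calls were not used. The members and gene lists were chosen with earlier results of these data known. Genes named with values were those called, up to 2 per class with the largest non-overlapping change, and both genes of each pair; others, such as lsm8, lsm6, tra2b, rbmx, snrpg and hnrnpm, were named after their values were seen. The main fit treated the arrays as unpaired. Deviations of same-numbered control and 50 µg/L arrays correlated at 0.103, 0.233 and 0.103. Those of differently numbered arrays of these groups ran from -0.308 to 0.213, so pairing was not established. A fit blocked on replicate number changed no member's call in that comparison. Alternatives changed the scaling, filter, offset, blocks, weights, groups fitted, trend and probe set choice, and left out each array in turn.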

Additional observations from a re-analysis of the deposited data

How the results depend on the processing

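The rises of lsm14b and lsm11 at 50 µg/L kept their direction in all settings tried, and under the 13 choices other than dropping single arrays, lsm14b passed in 13 and lsm11 in 12. The counts of members called at 50 µg/L (2 higher, 0 lower) changed to 6 and 11 with array weights, to 8 lower with arrays centred on their medians, to 1 lower after quantile normalization, to 3 lower under a filter of the lowest 60% of probe sets, with an offset of 32 or with a gene's probe sets averaged, to 2 lower with dim values set to the tag level, with the export format as a block or among the arrays with fewer decimals, and to 1 higher with only the 2 groups compared. Without single arrays they ran from 0 to 4 higher and from 0 to 3 lower. At 20 µg/L the counts were 0 in all settings. Between the doses (1 higher, 1 lower) they were 3 and 23 with array weights, 3 and 11 among the arrays with fewer decimals, 2 and 3 with only 2 groups, 2 lower with an offset of 32 or with probe sets averaged, 3 lower with dim values raised, and 0 lower without a filter. Without single arrays they ran from 0 to 2 higher and from 0 to 4 lower. The F test (1 called) gave 26 with array weights, 10 among the arrays with fewer decimals, 4 with dim values raised, 3 with arrays centred, with an offset of 32, with the export block or with probe sets averaged, 2 after quantile normalization, and 0 to 5 without single arrays. Other splicing genes at 50 µg/L (1 higher, 0 lower) gave 11 and 10 with array weights, 0 and 2 with arrays centred, 0 and 1 among the arrays with fewer decimals, 0 higher after quantile normalization, without a filter, without a trend or with only 2 groups, and 0 to 7 higher and 0 to 3 lower without single arrays. The members' median was -0.20 and -0.24 after quantile normalization and -0.62 and -0.63 with arrays centred, at 50 µg/L against control and between the doses, and -0.51 between the doses among the arrays with fewer decimals. Pairs without overlap (1) were 2 after quantile normalization and 1 to 3 without single arrays. In the comparisons with the 20 µg/L arrays, correlations of same-numbered arrays ran from -0.165 to 0.095. With the replicate number as a block 0 members were lower between the doses (hnrnpua, adjusted p = 0.0663), and against control the same 2 genes rose. The shares of all probe sets called under each alternative are not given here, so these counts have no background beside them. The causes of these differences were not tested. With 3 arrays a group, a change near the threshold cannot be told from the spread between arrays.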
